A study of Mus musculus with 75 samples.

Results

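The 10 genes described here are 4 transcription factors of fat cell formation (Pparg, Cebpa, Cebpb and Klf15), 3 proteins that bring fatty acids into cells (Cd36, Slc27a1 and Slc27a2) and 3 intracellular fatty acid-binding proteins (Fabp1, Fabp4 and Fabp5). They were taken by gene symbol from the annotation of the probe sets, and all 10 were measured, among 19147 genes tested. Cd36 was read by 2 probe sets and the other 9 genes by 1 each, so that 11 probe sets were involved. Where a gene had more than 1 probe set, the one with the highest mean in the tissue was used. The second Cd36 probe set is given beside it in some comparisons, not in all.

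PPARγ, the product of Pparg, is the nuclear receptor that drives fat cell differentiation, and it acts with C/EBPα on genes of fatty acid uptake, transport and storage. C/EBPβ acts early in differentiation, before Pparg and Cebpa are switched on, and KLF15 acts in differentiation and in the fasting metabolism of liver and fat. Lean liver makes little Pparg mRNA and relies on other carriers, chiefly FABP1 and the transporter FATP2 encoded by Slc27a2, whereas in fatty liver of mice the fat cell genes Pparg, Cd36 and Fabp4 are known to be made outside their usual tissue.

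Expression was measured on 75 one-colour microarrays, 39 of liver and 36 of epididymal white fat, from male mice that lacked the cannabinoid receptor CB1 in all cells (CB1-/-, on a C57BL/6 background) and from control littermates, called wild-type here. From 2 months of age the mice received a high-fat diet with 59.4% of energy from fat or chow with 13%, for 14 weeks. They were then gavaged once a day for 2 days with AM251, an inverse agonist of CB1, at 10 mg per kg or with methylcellulose vehicle, and tissue was taken on the morning after the second dose. The 8 groups of each tissue were high-fat knockout AM251, high-fat knockout vehicle, high-fat wild-type AM251, high-fat wild-type vehicle, chow knockout AM251, chow knockout vehicle, chow wild-type AM251 and chow wild-type vehicle. A group held 5 arrays, except 4 for high-fat knockout vehicle liver and 3 each for high-fat knockout vehicle fat and chow knockout AM251 fat. Liver fat content was not used here, so the livers are named by diet.

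Values are probe set intensities on a linear scale or their log2, and changes are differences of mean log2 intensity ± standard error (SE) from limma, with p-values adjusted over all 19147 genes (Benjamini-Hochberg) and called under 0.05. Liver arrays correlated with one another at a mean r of 0.963 to 0.991 and fat arrays at 0.977 to 0.990. The tissues matched their labels: Adipoq, the fat cell hormone adiponectin, had intensities of 6.40 to 11.8 in liver and 11825 to 17154 in fat, while Alb, albumin of hepatocytes, had 26166 to 31931 in liver and 17.7 to 359 in fat. Cnr1, the gene of CB1, had 47.5 to 69.8 in knockout and 45.5 to 68.3 in wild-type livers, and 30.8 to 161 in knockout and 32.6 to 260 in wild-type fat. Whether its probes fall inside the deletion could not be told, so these overlapping levels do not check the genotype labels. In 1 fat array of the high-fat wild-type AM251 group, number 36, the epididymis genes Lcn5 and Adam7 had intensities of 8148 and 1202, against medians of 147 and 29.6 over all fat arrays. Among the other fat arrays, the highest Lcn5 was 746, in array 37 of the same group. The highest Adam7 among them was 568, in array 3 of the high-fat wild-type vehicle group. Tests of the genes described here that rest on this array were also run without it. Values of other genes, marker counts and sums, and correlations were not recomputed without it.

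The promoter table of RefSeq (assembly GRCm38.p6), which gives 250 bases before to 50 bases after a listed start, held 12 promoters of 8 of the 10 genes. Fabp4 and Fabp5 had none. Pparg and Cd36 are shown because the liver differences turn on them, and Fabp1 because it alone held a match to the PPAR motif. Of the 3 Pparg windows, only the one that held a C/EBP match is printed. Capitals mark matches to the PPAR motif, AGGNCA repeated in the same direction after 1 base, which PPAR binds with its partner RXR, and to TTGCNNAA, the C/EBP motif, each searched on both strands.
Pparg promoter, chr6:115421816-115422115, plus strand: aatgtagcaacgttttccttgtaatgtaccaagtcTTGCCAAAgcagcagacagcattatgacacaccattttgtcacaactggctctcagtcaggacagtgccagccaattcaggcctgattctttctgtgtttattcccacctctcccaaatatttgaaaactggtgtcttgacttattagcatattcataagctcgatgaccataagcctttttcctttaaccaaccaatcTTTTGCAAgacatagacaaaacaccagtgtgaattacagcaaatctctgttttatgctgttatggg
Cd36 promoter, chr5:17835847-17836146, minus strand: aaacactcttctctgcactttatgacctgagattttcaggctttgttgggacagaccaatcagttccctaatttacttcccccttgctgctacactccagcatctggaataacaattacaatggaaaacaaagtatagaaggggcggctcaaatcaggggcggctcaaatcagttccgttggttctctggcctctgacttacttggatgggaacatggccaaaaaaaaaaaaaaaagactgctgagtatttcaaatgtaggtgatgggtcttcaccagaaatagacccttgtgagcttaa
Fabp1 promoter, chr6:71199629-71199928, plus strand: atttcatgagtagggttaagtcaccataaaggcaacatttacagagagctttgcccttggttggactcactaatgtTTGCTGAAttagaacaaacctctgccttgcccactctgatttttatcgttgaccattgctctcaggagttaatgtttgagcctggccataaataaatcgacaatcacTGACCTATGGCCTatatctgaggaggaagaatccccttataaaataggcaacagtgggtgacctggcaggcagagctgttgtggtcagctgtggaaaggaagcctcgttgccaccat
The Fabp1 window held the PPAR motif on the minus strand, its leftmost base 67 bases before the start, and the C/EBP motif 174 bases before it. The Pparg window, one of 3 listed for that gene, held the C/EBP motif at 215 and at 16 bases before the start. The other Pparg windows held neither motif. The Cd36 window held neither. Among all 32851 promoters of the table, 0.381% held the PPAR motif and 10.8% the C/EBP motif. A match is a description of these letters and not a site shown to be bound.

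The first comparison sets the level of each gene in liver against its level in fat of wild-type vehicle mice. Of the 10 genes, 3 were higher in liver and 7 lower on the high-fat diet, where 82.9% (11.4% higher and 71.4% lower) of all genes passed the threshold, and 3 were higher and 7 lower on chow, where 79.4% (12.4% higher and 67% lower) passed. With such a share of all genes past the threshold, the counts say little about these 10 genes, and the sizes of the differences carry the description. Array medians lay between 25.8 and 28.7 in liver and at 44.3 or more in fat, and whether the tissues share 1 scale is not known. The median difference of all genes between liver and fat was -0.56 on the high-fat diet and -0.50 on chow. Each share below is given with its value after quantile normalization over both tissues.

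Fabp1, the main fatty acid-binding protein of hepatocytes, had intensities of 20981, 21674, 23404, 22049.9 and 21808 in chow-fed livers, against 16.6 to 26.8 in chow-fed fat. Slc27a2, which encodes a fatty acid transporter and very-long-chain acyl-CoA synthetase of liver, had 8216, 7695, 5827, 5839.5 and 6757 in liver, against 62.7, 68.7, 35.4, 29.9 and 42.9 in fat. The log2 differences were 10.05 ± 0.16 (adjusted p = 1.76e-57) for Fabp1 and 7.22 ± 0.19 (adjusted p = 1.27e-43) for Slc27a2. Both genes were dim in every fat group, so the ratios of 1063 and 149 rest on fat intensities that no detection call supports here. Klf15 was higher in liver by 1.00 ± 0.13 (adjusted p = 7.58e-10) on the high-fat diet and by 0.28 ± 0.13 (adjusted p = 0.0499) on chow, where it had the smallest tissue difference of the 10 genes. The chow call was lost in the fit of the compared groups alone and without any of 7 single arrays.

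Fabp4, the fatty acid-binding protein of fat cells and macrophages, stood furthest apart in the other direction. It had 97.3, 145, 66.1, 104 and 107 in chow-fed livers, against 20202, 19013, 20189, 19105 and 19401 in fat. Cd36, the fatty acid translocase, had 620.4, 296, 156, 384 and 214 in chow-fed livers, against 7947, 7202, 9597, 7042 and 9558 in fat. Among these chow arrays, every fat array lay more than 10 times above every liver array for both genes. In chow-fed wild-type vehicle mice the liver level was 0.515% of the fat level for Fabp4 (0.675% after quantile normalization), 3.63% for Cd36 (4.53%), 4.00% for Slc27a1 (5.87%) and 6.75% for Pparg (10.2%). Slc27a1 encodes FATP1, the insulin-responsive transporter of fat and muscle. The C/EBP genes were closer between the tissues, with 36.2% for Cebpa (34.5%) and 53.8% for Cebpb (68.1%), and Fabp5, a binding protein found in macrophages as well as fat cells, stood at 31.4% (58.0%, no longer past the threshold).

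**Figure D1:**
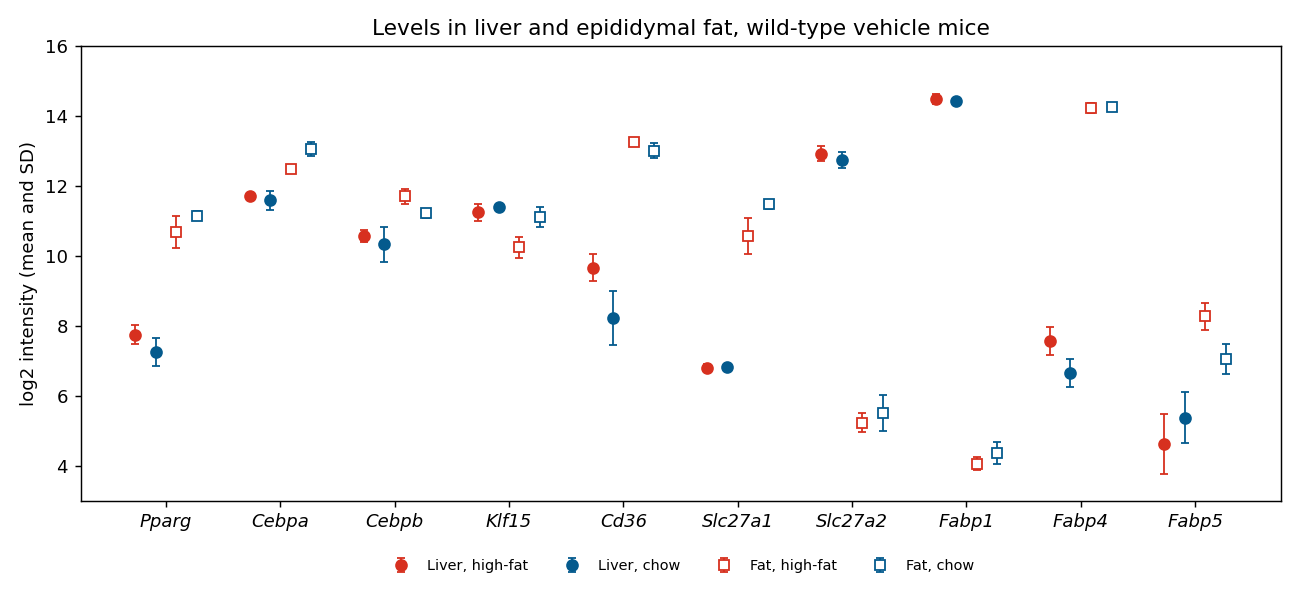
Mean log2 intensity and SD (n = 5 arrays each) of the 10 genes in liver (circles) and epididymal fat (squares) of wild-type vehicle mice on the high-fat diet (red) and on chow (blue). Pparg, Cd36, Slc27a1 and Fabp4 lay far lower in liver than in fat on both diets, and the red circles of Cd36 and Fabp4 lie above the blue ones; levels of different genes come from different probes and are not compared.

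On the high-fat diet the liver level was a larger share of the fat level for 4 of the genes far lower in liver, yet it stayed small. Cd36 in liver reached 8.36% of its fat level on the high-fat diet, against 3.63% on chow, and Fabp4 0.993%, against 0.515%. Pparg reached 13.1%, against 6.75%, and Slc27a1 7.31%, against 4.00%. The high-fat shares after quantile normalization were 8.93% for Cd36, 1.29% for Fabp4, 20.5% for Pparg and 11.7% for Slc27a1. Fabp5 went the other way, at 7.96% on the high-fat diet (13.9% after quantile normalization), against 31.4% on chow (58.0%).

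The diet effect in liver minus the diet effect in fat was tested for each gene in wild-type vehicle mice, and 7 of the 10 genes passed the threshold, 6 with a more positive effect in liver and 1 with a more negative one, where 14.2% (7.37% higher and 6.85% lower) of all genes passed. The median difference was 0.70 over the 10 genes and -0.037 over all genes. The parts of this difference were unlike from gene to gene. For Cd36 the difference was 1.20 ± 0.35 (adjusted p = 0.0128), made of 1.44 ± 0.32 in liver and 0.24 ± 0.089 in fat. For Fabp4 it was 0.95 ± 0.26 (adjusted p = 0.00773), made of 0.92 ± 0.24 in liver and -0.032 ± 0.062 in fat.

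For Pparg the difference was 0.96 ± 0.24 (adjusted p = 0.00282), with 0.49 ± 0.17 in liver and -0.46 ± 0.15 in fat. For Slc27a1 it was 0.87 ± 0.25 (adjusted p = 0.0118), for Klf15 0.72 ± 0.19 (adjusted p = 0.00573) and for Cebpa 0.69 ± 0.15 (adjusted p = 0.000650). In these 3 genes the liver effects were -0.034, -0.14 and 0.12, none past the threshold, and the fat effects were falls. For Fabp5 the difference was -1.98 ± 0.52 (adjusted p = 0.00558). Without fat arrays 1 and 5 of the high-fat wild-type vehicle group, which had the highest macrophage marker levels, Pparg stood at 0.70 with an adjusted p of 0.0568 and Klf15 at 0.53 with an adjusted p of 0.0761.

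Within liver, the high-fat diet raised 2 of the 10 genes in wild-type vehicle mice, Cd36 and Fabp4, and lowered none, where 1.69% (1.11% higher and 0.58% lower) of all genes passed the threshold. The median change was 0.16 over the 10 genes and -0.011 over all genes. Cd36 had intensities of 876, 1166, 547, 783 and 802 in high-fat livers, against 620.4, 296, 156, 384 and 214 in chow livers. Only the lowest high-fat array lay below the highest chow array, and the chow arrays were the more spread. The change was 1.44 ± 0.32 (adjusted p = 0.00957), a level 2.72 times that on chow, and the second Cd36 probe set gave 1.15 ± 0.26 with an adjusted p of 0.0212. Without chow array 3, the dimmest, it was 1.21 with an adjusted p of 0.0589. That array also correlated less with the other livers (mean r 0.983) than the rest of its group (0.989 to 0.990).

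Fabp4 had 164, 309, 166, 183 and 162 in high-fat livers, against 97.3, 145, 66.1, 104 and 107 in chow livers. The groups did not overlap, and 1 high-fat array stood well above the other 4. The change was 0.92 ± 0.24 (adjusted p = 0.0341), a level 1.89 times that on chow. The change was smaller without high-fat array 2, at 0.74 with an adjusted p of 0.163, and without chow array 3, at 0.76, and neither passed the threshold. Without high-fat array 4 or chow array 1 or 4 the change stayed at 0.93, 0.90 and 0.93, but the call was lost. The call was also lost with the compared groups alone, at an adjusted p of 0.0567.

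Pparg did not pass the threshold in this comparison. It had 211, 259, 166, 193 and 263 in high-fat livers, against 154, 142, 117, 135 and 241 in chow livers, with a change of 0.49 ± 0.17 (adjusted p = 0.153). Chow array 5, at 241, lay among the high-fat arrays, and without it the change was 0.66 with an adjusted p of 0.0276. The other regulators had changes of 0.12 ± 0.11 for Cebpa, 0.24 ± 0.23 for Cebpb and -0.14 ± 0.10 for Klf15, with adjusted p from 0.613 to 0.764. The 2 liver carriers stood at 0.19 ± 0.10 (adjusted p = 0.470) for Slc27a2 and 0.066 ± 0.071 (adjusted p = 0.791) for Fabp1. Fabp5 was dim and scattered, at 15.5 to 67.8 in high-fat and 17.4 to 60.4 in chow livers, and its change was -0.76 ± 0.44 (adjusted p = 0.510).

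**Figure D2:**
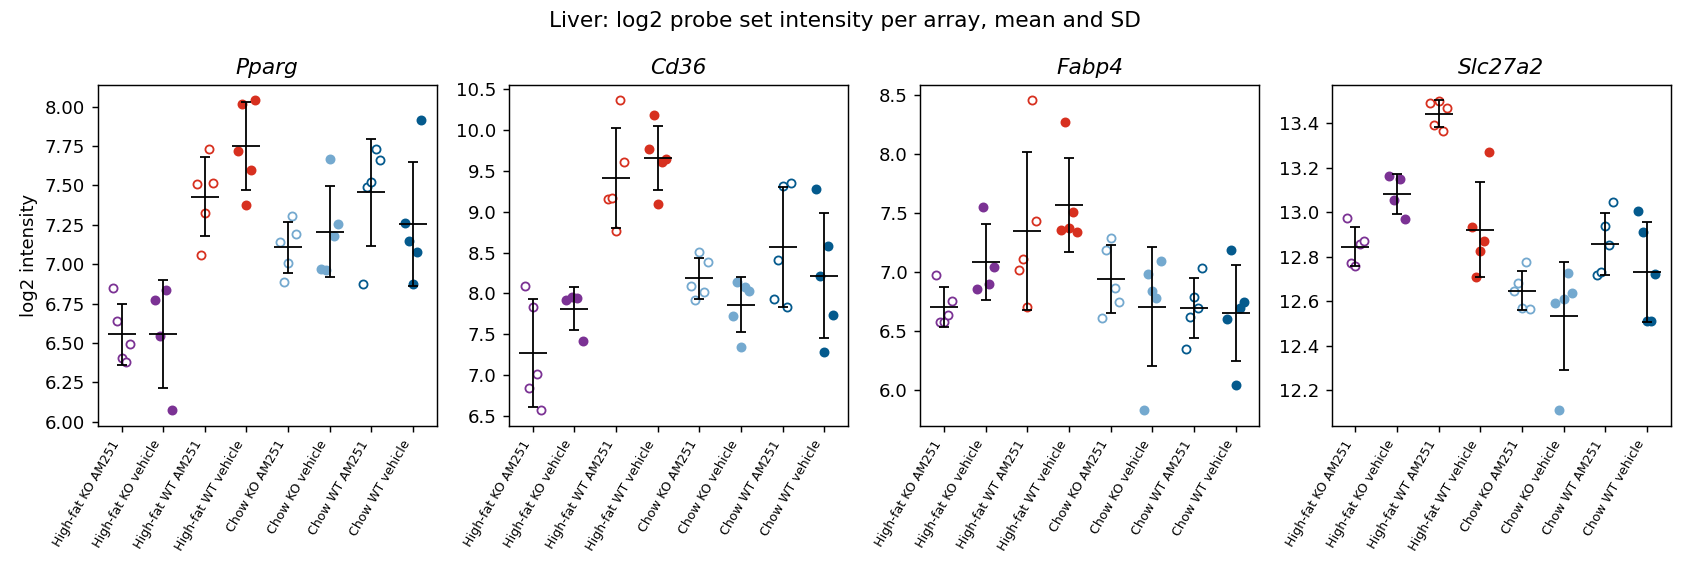
Log2 intensity of Pparg, Cd36, Fabp4 and Slc27a2 on each liver array (points; open for AM251, filled for vehicle) with group mean and SD, n = 5 per group and 4 for high-fat knockout vehicle. The group means of high-fat wild-type livers are the highest for Cd36, high-fat knockout arrays lie below high-fat wild-type arrays for Pparg and Cd36, and high-fat wild-type AM251 arrays stand above all others for Slc27a2.

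Around these genes, 4 of 19 measured known PPARγ targets other than the 10 rose in high-fat wild-type vehicle livers and 0 fell, with a median change of 0.24, against -0.011 over all genes. In this comparison 1.11% of all genes rose and 0.58% fell, beside which the list counts here are to be read. Cidea, a lipid droplet protein, had 29.3 to 494 in high-fat livers and 18.6 to 50.9 in chow livers, and changed by 2.87 ± 0.49 (adjusted p = 0.000502). The hepatic hormone Fgf21 changed by 1.51 ± 0.29 (adjusted p = 0.00259), the droplet protein Plin4 by 1.33 ± 0.35 (adjusted p = 0.0386) and Mogat1, an enzyme of triglyceride synthesis, by 1.28 ± 0.32 (adjusted p = 0.0258). Of 21 other genes of fatty acid uptake and trafficking 1 rose and 1 fell: the intestinal-type binding protein Fabp2 at 1.03 ± 0.14 (adjusted p = 3.35e-05), and Cav1, caveolin of the plasma membrane, at -0.51 ± 0.12 (adjusted p = 0.0169). Of 28 other genes listed as adipogenic factors, which include inhibitors of fat cell formation, 1 rose, Klf6, at 0.83 ± 0.16 (adjusted p = 0.00173), and none fell.

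Markers of other cells were read beside the liver genes, since in whole tissue fewer cells of a type and less RNA per cell cannot be told apart. Of 16 macrophage markers 2 rose, Mpeg1 at 0.79 ± 0.20 and Itgax at 0.63 ± 0.17, with a list median of 0.46, and their summed intensity ran from 2705 to 5255 in high-fat and from 1850.4 to 3549.6 in chow livers. Of 12 stromal and mesothelial markers 1 rose, the matrix protein gene Dpt, at 0.71 ± 0.19 (adjusted p = 0.0448). Of 11 fat cell markers none passed limma's threshold and 1 had an unadjusted p under 0.05. Adipoq had 6.89 to 7.77 in high-fat and 6.63 to 9.75 in chow livers, so this defining fat cell marker stayed far below its levels in fat. The part of macrophage and stromal RNA in the Cd36 and Fabp4 changes was not tested.

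The next comparison asked whether loss of CB1 altered these genes in liver. On the high-fat diet under vehicle, 2 of the 10 genes were lower in knockout livers, Pparg and Cd36, and none was higher, where 1.19% (0.48% higher and 0.71% lower) of all genes passed the threshold. Pparg had 109, 93.4, 114 and 67.3 in knockout livers, against 211, 259, 166, 193 and 263 in wild-type livers. The groups did not overlap, and the change was -1.19 ± 0.18 (adjusted p = 0.000326), a knockout level 0.437 times that of wild-type mice. Cd36 had 242, 249, 247 and 171 in knockout livers, against 876, 1166, 547, 783 and 802 in wild-type livers. These groups were also apart, with a change of -1.85 ± 0.34 (adjusted p = 0.00185), and the second probe set gave -1.75 ± 0.28.

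Both calls were kept without each array in turn and in all the alternative fits run. Fabp4 in the same livers had 116, 187, 119 and 132 in knockout mice, against the wild-type values above, a change of -0.49 ± 0.25 (adjusted p = 0.443). The hepatocyte carriers did not pass the threshold between genotypes, at -0.016 ± 0.075 (adjusted p = 0.957) for Fabp1 and 0.16 ± 0.11 (adjusted p = 0.592) for Slc27a2. Of the 19 other PPARγ targets 6 were lower in knockout livers and 0 higher, with a median of -0.44, against -0.013 over all genes. Mogat1 fell by 2.31 on the log2 scale, to 19.7 to 26.9 in knockout livers, against 40.4 to 163 in wild-type livers, and Cidea by 3.24, to 14.8 to 23.2. Of the 16 macrophage markers none passed limma's threshold and 3 had an unadjusted p under 0.05.

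The same 2 genes were lower in high-fat knockout livers under AM251, together with Slc27a1 and Slc27a2, so 4 of 10 passed, where 2.3% (1.08% higher and 1.22% lower) of all genes did. Pparg had 115, 99.9, 84.8, 83.4 and 90.0 in knockout livers, against 182, 133, 160.1, 213 and 183 in wild-type livers, a change of -0.87 ± 0.17 (adjusted p = 0.00155). Cd36 had 272, 115, 229, 129 and 95.0 in knockout livers, against 571, 574, 434, 1319 and 782 in wild-type livers, a change of -2.14 ± 0.32 (adjusted p = 2.21e-05). These mice are separate from the vehicle-treated ones, and in neither gene did knockout and wild-type arrays overlap. Slc27a2 changed by -0.60 ± 0.10 (adjusted p = 0.000231), and Slc27a1, a low-level gene in liver, by -0.35 ± 0.091 (adjusted p = 0.0267). The Slc27a1 call was lost without knockout array 46, 47 or 48 or wild-type array 35 or 38, with changes between -0.33 and -0.28, and in the compared groups alone. On chow none of the 10 passed limma's threshold between genotypes in liver, with 2 at an unadjusted p under 0.05 under vehicle and 2 under AM251, where 6.77% and 0.324% of all genes passed.

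Within knockout livers, high-fat and chow groups were compared in the same way. Under vehicle 1 gene rose and 1 fell, where 17% (8.63% higher and 8.36% lower) of all genes passed the threshold: Slc27a2 rose by 0.55 ± 0.11 (adjusted p = 0.000578), and Pparg changed by -0.65 ± 0.18 (adjusted p = 0.0124). Pparg had 109, 93.4, 114 and 67.3 in high-fat knockout livers, against 125, 125, 203, 145 and 153 in chow knockout livers. Chow knockout vehicle arrays 15 and 17 correlated less with the other livers (mean r 0.982 and 0.963) than the rest of their group (0.987 to 0.989). The fall was -0.49 with an adjusted p of 0.0836 without high-fat array 44, and it was also short of the threshold without chow array 17, without chow arrays 15 and 17, and with the compared groups alone, at adjusted p of 0.0535, 0.0714 and 0.0626. Cd36 changed by -0.051 ± 0.34 (adjusted p = 0.932), and Fabp4 by 0.38 ± 0.25 (adjusted p = 0.299).

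The difference of the diet effect between genotypes, knockout minus wild-type under vehicle, was itself tested, and 1 of the 10 genes passed, where 4.17% (2.84% higher and 1.33% lower) of all genes did. For Pparg it was -1.15 ± 0.25 (adjusted p = 0.00805). For Cd36 it was -1.50 ± 0.46 (adjusted p = 0.0563), just short of the threshold, and -1.39 ± 0.38 with an adjusted p of 0.0345 on its second probe set. It passed without high-fat wild-type array 3, at -1.64, and without chow wild-type array 1, at -1.76. For Fabp4 it was -0.54 ± 0.35 (adjusted p = 0.417). The diet and genotype comparisons share their wild-type and knockout groups, so these values are not separate pieces of evidence.

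Over the 8 liver groups, mean log2 intensity of Pparg was 7.75 ± 0.28 in high-fat wild-type vehicle, 7.46 ± 0.34 in chow wild-type AM251, 7.43 ± 0.25 in high-fat wild-type AM251, 7.25 ± 0.39 in chow wild-type vehicle, 7.21 ± 0.29 in chow knockout vehicle, 7.11 ± 0.16 in chow knockout AM251, 6.56 ± 0.34 in high-fat knockout vehicle and 6.55 ± 0.19 in high-fat knockout AM251 livers (mean ± SD). The widest step between neighbours in this order was that down to the 2 high-fat knockout groups, and the next widest, below the high-fat wild-type vehicle group, was close to that group's SD. Cd36 was highest in the 2 high-fat wild-type groups, at 9.66 ± 0.39 under vehicle and 9.41 ± 0.61 under AM251, and lowest in high-fat knockout AM251 livers, at 7.27 ± 0.66. The 5 groups between ran from 7.81 to 8.57.

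AM251 in high-fat wild-type livers moved 1 of the 10 genes, Slc27a2, where 1.91% (0.888% higher and 1.02% lower) of all genes passed the threshold. Slc27a2 had 11503, 10747, 11572, 10551 and 11328 under AM251, against 7829, 6683, 7263, 7483 and 9885 under vehicle. The groups did not overlap, and the AM251 arrays were the tighter. The change was 0.52 ± 0.10 (adjusted p = 0.00185), a level 1.43 times that under vehicle, and the call was kept without each array in turn.

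In high-fat knockout livers Slc27a2 had 8033, 6989, 6919, 7418 and 7493 under AM251, against 9156, 8504, 9078 and 8019 under vehicle, a change of -0.24 ± 0.11 (adjusted p = 0.999). The AM251 effect in wild-type minus that in knockout mice was 0.76 ± 0.15 (adjusted p = 0.00590), the 1 of 10 genes past the threshold in that test, where 0.564% (0.193% higher and 0.371% lower) of all genes passed. In wild-type AM251 livers the high-fat diet raised Slc27a2 by 0.59 ± 0.10 (adjusted p = 0.000310), again the 1 gene of 10 to pass, where 1.96% (1.01% higher and 0.956% lower) of all genes did. That comparison shares the high-fat AM251 arrays with the one above.

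Cd36, Pparg and Fabp4 did not pass the threshold with AM251 in high-fat wild-type livers. Cd36 stood at -0.25 ± 0.32 (adjusted p = 0.841), Pparg at -0.32 ± 0.17 (adjusted p = 0.494) and Fabp4 at -0.22 ± 0.24 (adjusted p = 0.800). AM251 arrays of Fabp4 were spread over 105 to 351, and their log2 SD of 0.67 was above that of any other liver group. Of the 19 other PPARγ targets 1 fell, Cidea, at -1.99 ± 0.49 (adjusted p = 0.0182), and 0 rose, with a median of -0.16. Of the 21 genes of uptake and trafficking 2 fell, the acyl-CoA synthetases Acsl3 at -1.34 ± 0.20 (adjusted p = 4.08e-05) and Acsl5 at -0.76 ± 0.14 (adjusted p = 0.000647). Of 16 macrophage markers none passed limma's threshold and 0 had an unadjusted p under 0.05. Of 11 hepatocyte markers 2 fell and 0 rose, the urea cycle enzyme Ass1 at -0.85 ± 0.091 (adjusted p = 6.79e-08) and Tat, tyrosine aminotransferase, at -1.26 ± 0.18 (adjusted p = 1.68e-05). Summed hepatocyte marker intensity ran from 136312 to 146773 under AM251 and from 145627 to 156666 under vehicle, and its part in the Slc27a2 change was not tested.

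In fat of wild-type vehicle mice the high-fat diet changed 7 of the 10 genes. Of these 3 rose and 4 fell, where 24.5% (12.1% higher and 12.4% lower) of all genes passed the threshold, and the median change was -0.30, against 0.024 over all genes. Among the regulators, Klf15 had 877, 1527, 1369, 1136 and 1267 in high-fat fat, against 1937, 2054, 1761, 2790.3 and 2609 in chow fat. The groups did not overlap, and the change was -0.85 ± 0.16 (adjusted p = 0.000186). Cebpa had 5129, 6223, 5332, 5923 and 6142 in high-fat fat, against 7582, 8824, 7376, 10436 and 8522 in chow fat, again without overlap, with a change of -0.57 ± 0.10 (adjusted p = 9.00e-05). Both falls were kept without each array in turn.

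Cebpb moved the other way. It had 3612, 2622, 3157, 3649 and 3787 in high-fat fat, against 2468, 2545, 2071, 2547 and 2332 in chow fat, and the change was 0.48 ± 0.14 (adjusted p = 0.00920). Pparg had 1289, 2479.8, 2114, 1223 and 1453 in high-fat fat, against 1985, 2179, 2449.6, 2327 and 2407 in chow fat. Its high-fat arrays fell into 3 low and 2 at the chow level, and the change was -0.46 ± 0.15 (adjusted p = 0.0239). The Pparg call was lost without high-fat array 1, 5 or 6 or chow array 3 or 5, with changes between -0.44 and -0.35, and with the compared groups alone (adjusted p = 0.0973), and it was -0.20 with an adjusted p of 0.418 without arrays 1 and 5 together.

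Of the uptake genes, Slc27a1 fell with the diet. It had 2002, 935, 1146, 1983 and 1869.8 in high-fat fat, against 2960.2, 3069.7, 2612, 2972 and 2580.0 in chow fat, without overlap, a change of -0.90 ± 0.23 (adjusted p = 0.00407). Cd36 was higher by 0.24 ± 0.089 (adjusted p = 0.0420), but this small change was 0.14 with an adjusted p of 0.208 on the second probe set and short of the threshold without any of 7 of the 10 arrays. Slc27a2, dim in fat, stood at -0.28 ± 0.25 (adjusted p = 0.472). Of the binding proteins, Fabp5 had 445, 207, 313, 328 and 293 in high-fat fat, against 156, 163, 135, 149 and 79.2 in chow fat. Every high-fat array lay above every chow array, and the change was 1.22 ± 0.23 (adjusted p = 0.000192), a level 2.32 times that on chow. Fabp4, which rose in liver, did not pass the threshold in fat, at -0.032 ± 0.062 (adjusted p = 0.771), at 16753 to 21829 on high-fat and 19013 to 20202 on chow arrays.

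**Figure D3:**
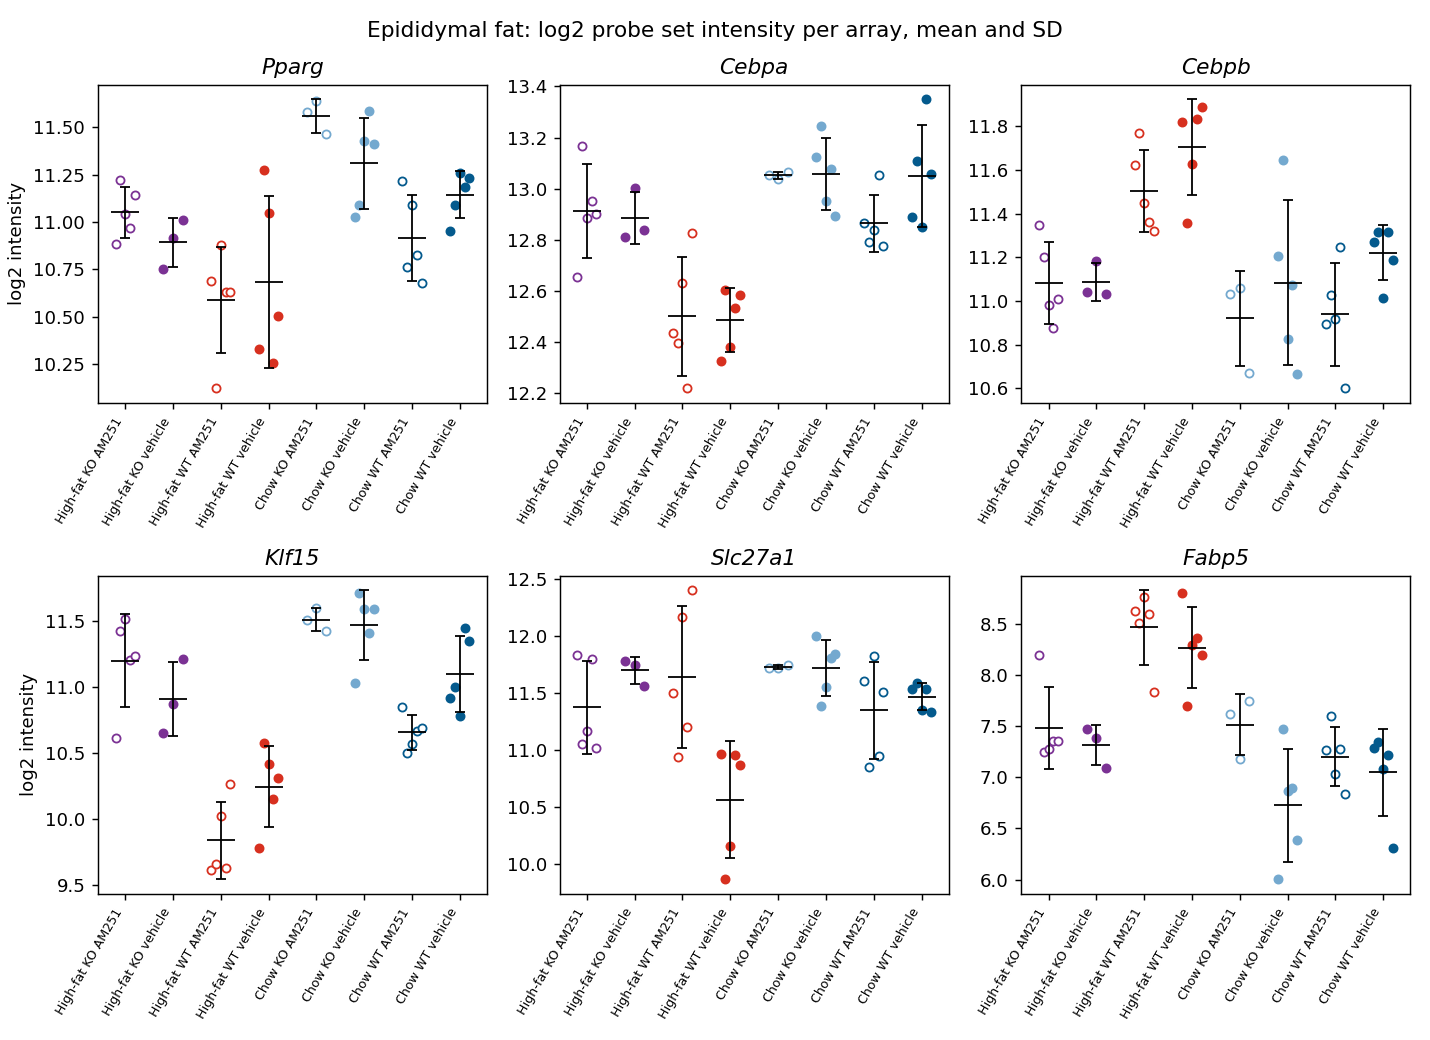
Log2 intensity of Pparg, Cebpa, Cebpb, Klf15, Slc27a1 and Fabp5 on each array of epididymal fat (points; open for AM251, filled for vehicle) with group mean and SD, n = 5 per group and 3 for high-fat knockout vehicle and chow knockout AM251. The group means of high-fat wild-type fat are the lowest for Cebpa and Klf15 and the highest for Cebpb and Fabp5, and that of high-fat wild-type vehicle fat is the lowest for Slc27a1.

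Levels of macrophage markers also differed between the diet groups of this comparison. Of 16 macrophage markers 12 rose in high-fat wild-type vehicle fat and 0 fell, with a median of 0.90, where 12.1% of all genes rose and 12.4% fell. Mpeg1 changed by 2.69 ± 0.33 (adjusted p = 1.17e-06), Mmp12 by 4.16 ± 0.52 (adjusted p = 1.24e-06), Trem2 by 3.50 ± 0.47 (adjusted p = 2.50e-06) and Itgax by 3.17 ± 0.40 (adjusted p = 1.52e-06). Their summed intensity was 33571, 10457, 15822, 24513 and 17584 in high-fat wild-type vehicle fat, and ran from 4046 to 5978 in chow wild-type vehicle fat. Of 12 stromal and mesothelial markers 4 fell, Wt1 at -1.07 ± 0.15, Krt19 at -1.11 ± 0.19, Upk3b at -0.61 ± 0.16 and Upk1b at -0.62 ± 0.20. Of 14 endothelial markers 3 rose, Stab2 at 1.47 ± 0.32, Egfl7 at 0.67 ± 0.15 and Pecam1 at 0.80 ± 0.22, and 3 fell, among them the receptor gene Kdr at -0.71 ± 0.13. Of 9 lymphoid markers 2 rose, Nkg7 at 0.53 ± 0.14 and Cd79b at 0.77 ± 0.25. Of 11 genes listed as hepatocyte markers 3 fell, Cyp2e1 at -1.45 ± 0.21, Pck1 at -1.09 ± 0.25 and Alb at -2.13 ± 0.55, and 2 rose, among them Ass1 at 0.76 ± 0.24. Of 11 fat cell markers 4 fell and 1 rose. The droplet protein gene Plin1 stood at -0.55 ± 0.12 and Nnat at -0.80 ± 0.17. The leptin gene Lep rose by 0.94 ± 0.24 (adjusted p = 0.00354), and Adipoq had 11825 to 15597 in high-fat and 14874 to 16890.4 in chow fat. The part of macrophage RNA in the changes of the 10 genes was not tested. Without arrays 1 and 5, 4 of the 7 calls were kept (Cebpa, Klf15, Slc27a1 and Fabp5), while Cebpb stood at 0.40 with an adjusted p of 0.0862. This cannot settle that part. The high-fat arrays left, at 10457 to 17584, still had more macrophage marker intensity than the chow arrays, and a smaller group can lose calls by itself.

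The other genes listed as adipogenic factors fell more often than they rose, 14 against 2 of 28, with a median of -0.26. The list also holds inhibitors of fat cell formation, such as Gata2, Gata3 and Dlk1, so these counts give no direction of that process. Of all genes, 12.1% rose and 12.4% fell in this comparison, beside which the list counts here are to be read. The early B-cell factor Ebf3 changed by -1.34 ± 0.17 (adjusted p = 1.80e-06), the nuclear receptors Ppara and Nr3c1 by -0.78 ± 0.12 and -0.65 ± 0.11, and Egr2, an immediate early factor, by 1.99 ± 0.31 (adjusted p = 1.46e-05). Of the 19 other PPARγ targets 7 fell and 3 rose, with a median of -0.22. Mogat1, which rose in high-fat liver, changed by -1.68 ± 0.22 (adjusted p = 1.67e-06) in fat, to 318 to 710.1 on high-fat, against 1158 to 1717 on chow arrays. The triglyceride lipase Pnpla2 changed by -0.60 ± 0.089, its inhibitor G0s2 by -0.76 ± 0.17 and the droplet protein Plin2, which macrophages also make, by 1.25 ± 0.19. Cidea in fat was at 0.042 ± 0.15 (adjusted p = 0.883). Of the 21 other genes of uptake and trafficking 4 rose and 4 fell, with a median of 0.050. The binding protein gene Fabp7 changed by 1.73 ± 0.24 (adjusted p = 3.34e-06), the acyl-CoA synthetase Acsl5 by 0.71 ± 0.12 (adjusted p = 6.08e-05), the lipase maturation factor Lmf1 by -0.48 ± 0.11 (adjusted p = 0.000970) and the transporter gene Slc27a4 by -0.45 ± 0.12 (adjusted p = 0.00641).

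Under AM251 the diet effect in wild-type fat passed the threshold for 4 of the 10 genes, Klf15 at -0.82 ± 0.16 (adjusted p = 0.00170), Cebpa at -0.36 ± 0.10 (adjusted p = 0.0202), Cebpb at 0.57 ± 0.14 (adjusted p = 0.00840) and Fabp5 at 1.26 ± 0.23 (adjusted p = 0.000959), where 9.55% (4.76% higher and 4.79% lower) of all genes passed. These arrays are separate from the vehicle arrays. Klf15 had 782, 807, 1041, 792 and 1231 on the high-fat diet, against 1844, 1445, 1522, 1631 and 1655 on chow, without overlap. The Cebpa call was lost without high-fat array 34 or 36 or chow array 13, with changes between -0.34 and -0.29, and with the compared groups alone. Slc27a1, which fell under vehicle, stood at 0.29 ± 0.23 (adjusted p = 0.513). In the same arrays 6 of 16 macrophage markers rose and 0 fell, 3 of 14 endothelial markers rose and 0 fell, and 3 of 12 stromal and mesothelial markers fell and 0 rose. Summed macrophage intensity ran from 7232 to 25299 on the high-fat diet and from 5529 to 7874 on chow, and the part of these cells in the 4 changes was not tested.

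**Figure D4:**
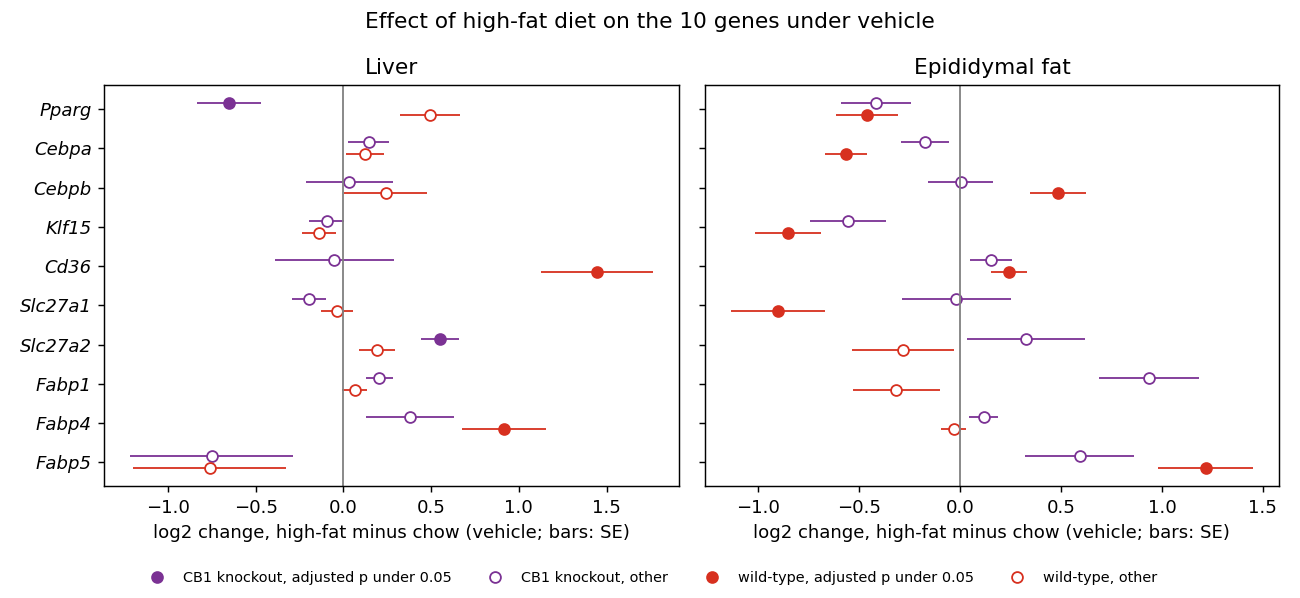
Log2 change with the high-fat diet against chow (± SE) of the 10 genes under vehicle, in liver (left) and epididymal fat (right), for CB1 knockout (purple) and wild-type mice (red); filled points have an adjusted p under 0.05. Cd36 and Fabp4 rose in wild-type livers, Pparg has opposite signs in the livers of the 2 genotypes, and Cebpa, Klf15 and Slc27a1 fell in wild-type fat.

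In knockout fat the high-fat diet brought none of the 10 genes past limma's threshold under vehicle, where 0.00522% of all genes passed and 4 of the 10 had an unadjusted p under 0.05. With 3 high-fat arrays the changes were -0.56 ± 0.19 (adjusted p = 0.474) for Klf15, -0.42 ± 0.18 (adjusted p = 0.593) for Pparg and 0.59 ± 0.27 (adjusted p = 0.655) for Fabp5. The difference of the diet effect, knockout minus wild-type, passed for 1 of the 10 genes, where 6.34% (2.87% higher and 3.46% lower) of all genes passed. That gene was Fabp1, a dim gene in fat, at 1.25 ± 0.33 (adjusted p = 0.0179). It missed the threshold without high-fat knockout array 44, at 0.92 with an adjusted p of 0.114, and without wild-type arrays 1 and 5, at 1.21 with an adjusted p of 0.0649. For Slc27a1 it was 0.88 ± 0.36 (adjusted p = 0.139), for Cebpa 0.39 ± 0.16 (adjusted p = 0.135) and for Klf15 0.30 ± 0.25 (adjusted p = 0.552), so a difference of the diet effect between genotypes was not shown for these genes.

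Between genotypes in high-fat fat under vehicle, 4 of the 10 genes were higher in knockout mice and 2 lower, where 15.9% (7.22% higher and 8.7% lower) of all genes passed the threshold. Slc27a1 had 3516, 3438 and 3025 in knockout fat, against 2002, 935, 1146, 1983 and 1869.8 in wild-type fat, without overlap, a change of 1.13 ± 0.27 (adjusted p = 0.00319). Klf15 had 1613, 1877 and 2372 in knockout fat and Cebpa 7195, 8198 and 7331, against the wild-type values given above. Their changes were 0.67 ± 0.19 (adjusted p = 0.0132) for Klf15 and 0.40 ± 0.12 (adjusted p = 0.0175) for Cebpa. Cebpb was lower, at -0.62 ± 0.16 (adjusted p = 0.00656), as was Fabp5, at -0.95 ± 0.27 (adjusted p = 0.0136), while Pparg stood at 0.21 ± 0.18 (adjusted p = 0.496).

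The fourth higher gene was Fabp1, with 18.9, 32.7 and 50.3 in knockout fat, against 16.8, 14.8, 20.2, 14.8 and 16.9 in wild-type fat, a change of 0.92 ± 0.25 (adjusted p = 0.00881). Alb in the same 3 knockout arrays was 65.9, 119 and 323, and 24.8 to 29.9 in the wild-type arrays, and its part in the Fabp1 change was not tested. Without knockout array 44 Fabp1 was at 0.58, Klf15 at 0.52 and Fabp5 at -0.84, all short of the threshold, as was Cebpa at 0.34 without knockout array 43 and at 0.36 without wild-type array 1. Of the 16 macrophage markers 11 were lower in knockout fat and 0 higher, with a median of -0.99, and their summed intensity ran from 4448 to 4697 in knockout fat, against 10457 to 33571 in wild-type fat. Without wild-type arrays 1 and 5, 2 of the 6 calls were kept, Slc27a1 and Fabp1. The wild-type arrays left still had more macrophage marker intensity than the knockout arrays, so the part of macrophage RNA was not tested by this. Of 11 fat cell markers 5 were higher in knockout fat and 1 lower, of 14 endothelial markers 3 were higher and 1 lower, and of 12 stromal and mesothelial markers 5 were higher and 0 lower. Summed fat cell marker intensity ran from 116459 to 129113 in knockout and from 103697 to 119310 in wild-type fat, and the part of these cells was not tested. Of the 19 other PPARγ targets 8 were higher and 1 lower, with a median of 0.30, and Mogat1 differed by 1.73 ± 0.25 (adjusted p = 2.51e-05).

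Under AM251, with separate mice, 3 of the 10 genes were higher in high-fat knockout fat and 3 lower, where 15.2% (8.19% higher and 6.99% lower) of all genes passed. Klf15 had 1571, 2759, 2938, 2363 and 2409 in knockout fat, against 782, 807, 1041, 792 and 1231 in wild-type fat, without overlap and with a change of 1.36 ± 0.16 (adjusted p = 3.60e-06). Cebpa was higher by 0.41 ± 0.10 (adjusted p = 0.00540) and Pparg by 0.46 ± 0.15 (adjusted p = 0.0356). The lower genes were Fabp5 at -0.98 ± 0.23 (adjusted p = 0.00383), Cd36 at -0.43 ± 0.089 (adjusted p = 0.00106) and Cebpb at -0.42 ± 0.14 (adjusted p = 0.0344). The second Cd36 probe set gave -0.29 with an adjusted p of 0.0121. The Pparg call was lost without knockout array 46, 48 or 50 or wild-type array 34 or 36, with changes between 0.34 and 0.47, and the Cebpb call without knockout array 48, 49 or 50 or wild-type array 33 or 34, with changes between -0.40 and -0.36. Of the 16 macrophage markers 9 were lower in knockout fat and 0 higher. Of 14 endothelial markers 5 were lower and 0 higher, with a median of -0.31, and of 11 fat cell markers 2 were higher and 0 lower. Summed intensity in knockout and in wild-type fat ran from 4147 to 8937 and from 7232 to 25299 for macrophage markers, and from 13839 to 18914 and from 15016 to 26093 for endothelial markers. The part of these cells in the differences was not tested.

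On chow under AM251 the fat of knockout mice had more Klf15 and Pparg, 2 of 10 genes, where 3.39% (1.98% higher and 1.42% lower) of all genes passed. Klf15 had 2920.1, 3101 and 2752 in knockout fat, against 1844, 1445, 1522, 1631 and 1655 in wild-type fat, a change of 0.86 ± 0.19 (adjusted p = 0.00852). Pparg had 3058, 3183 and 2825 in knockout fat, against 2377, 1736, 2182, 1814 and 1639.7 in wild-type fat, a change of 0.65 ± 0.18 (adjusted p = 0.0335). Neither gene's groups overlapped. The knockout group held 3 arrays: the Pparg call was lost without any one of them or without wild-type array 11, 13 or 14, with changes between 0.59 and 0.69, and the Klf15 call without knockout array 21, at 0.81 with an adjusted p of 0.0528. Of 11 fat cell markers 3 were lower in knockout fat and 0 higher, and their summed intensity, 105389 to 111177 in knockout and 120970 to 125413 in wild-type fat, did not overlap. Of 16 macrophage markers none passed limma's threshold and 2 had an unadjusted p under 0.05, and the part of these cells was not tested. Under vehicle none of the 10 passed limma's threshold on chow and 1 had an unadjusted p under 0.05, where 0.0575% of all genes passed.

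AM251 in high-fat wild-type fat raised 1 of the 10 genes, Slc27a1, where 1.11% (0.48% higher and 0.632% lower) of all genes passed the threshold. It had 2894, 1962, 4585, 2354 and 5399.9 under AM251, against 2002, 935, 1146, 1983 and 1869.8 under vehicle. The lowest AM251 array lay within the vehicle range, and the AM251 arrays were widely spread. The change was 1.08 ± 0.23 (adjusted p = 0.0163), a level 2.11 times that under vehicle. It was lost without vehicle array 4, at 0.98 with an adjusted p of 0.0700, without AM251 array 35, at 0.95, without AM251 array 37, at 0.89, and with the compared groups alone but not without array 36 with the epididymis transcripts.

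In high-fat knockout fat AM251 gave Slc27a1 a change of -0.33 ± 0.27 (adjusted p = 0.999). The wild-type minus knockout difference of the AM251 effect was 1.40 ± 0.36 (adjusted p = 0.0689), and none of the 10 genes passed limma's threshold in that test, 5 having an unadjusted p under 0.05, where 0.407% of all genes passed. Slc27a1 passed it without knockout array 45 or 49 or wild-type array 34, at 1.52, 1.51 and 1.58. The difference of its AM251 effect between liver and fat of high-fat wild-type mice was -0.80 ± 0.25 (adjusted p = 0.0838), and none of the 10 passed that test, with 2 at an unadjusted p under 0.05, where 1.72% of all genes passed. Without fat AM251 array 34 or 36 Slc27a1 passed it, at -0.98 and -0.91. Beside Slc27a1, 2 of the 19 other PPARγ targets rose with AM251 in this fat and 0 fell, Pck1, an enzyme of glyceride and glucose formation, at 1.70 ± 0.25 (adjusted p = 0.000891) and Pnpla2 at 0.35 ± 0.089 (adjusted p = 0.0413). Of 14 endothelial markers 4 rose, Gpihbp1, which holds lipoprotein lipase on capillaries, at 0.60 ± 0.12 (adjusted p = 0.0115), Kdr at 0.59 ± 0.13, Robo4 at 0.61 ± 0.14 and Sox18 at 0.53 ± 0.14, and of 16 macrophage markers 1 fell, Aif1, at -0.64 ± 0.17 (adjusted p = 0.0493). Summed endothelial intensity ran from 15016 to 26093 under AM251 and from 12524 to 16551 under vehicle, and its part in the Slc27a1 change was not tested.

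Of the remaining comparisons, AM251 against vehicle brought none of the 10 genes past limma's threshold in high-fat knockout liver or fat, nor in chow-fed mice of either genotype and tissue, with 0 to 3 genes at an unadjusted p under 0.05 in each. The shares of all genes past the threshold there were 0.0104% in liver and 0% in fat of high-fat knockout mice, 0.125% and 0.0157% in chow knockout mice and 0% and 0% in chow wild-type mice. The high-fat against chow comparison of knockout mice under AM251 likewise passed for none of the 10 in liver or fat, with 3 and 1 at an unadjusted p under 0.05, where 2.64% and 0.81% of all genes passed. The difference of the AM251 effect between diets in wild-type mice passed for none of the 10, with 3 in liver and 1 in fat at an unadjusted p under 0.05, where 0.251% and 0% of all genes passed.

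**Figure D5:**
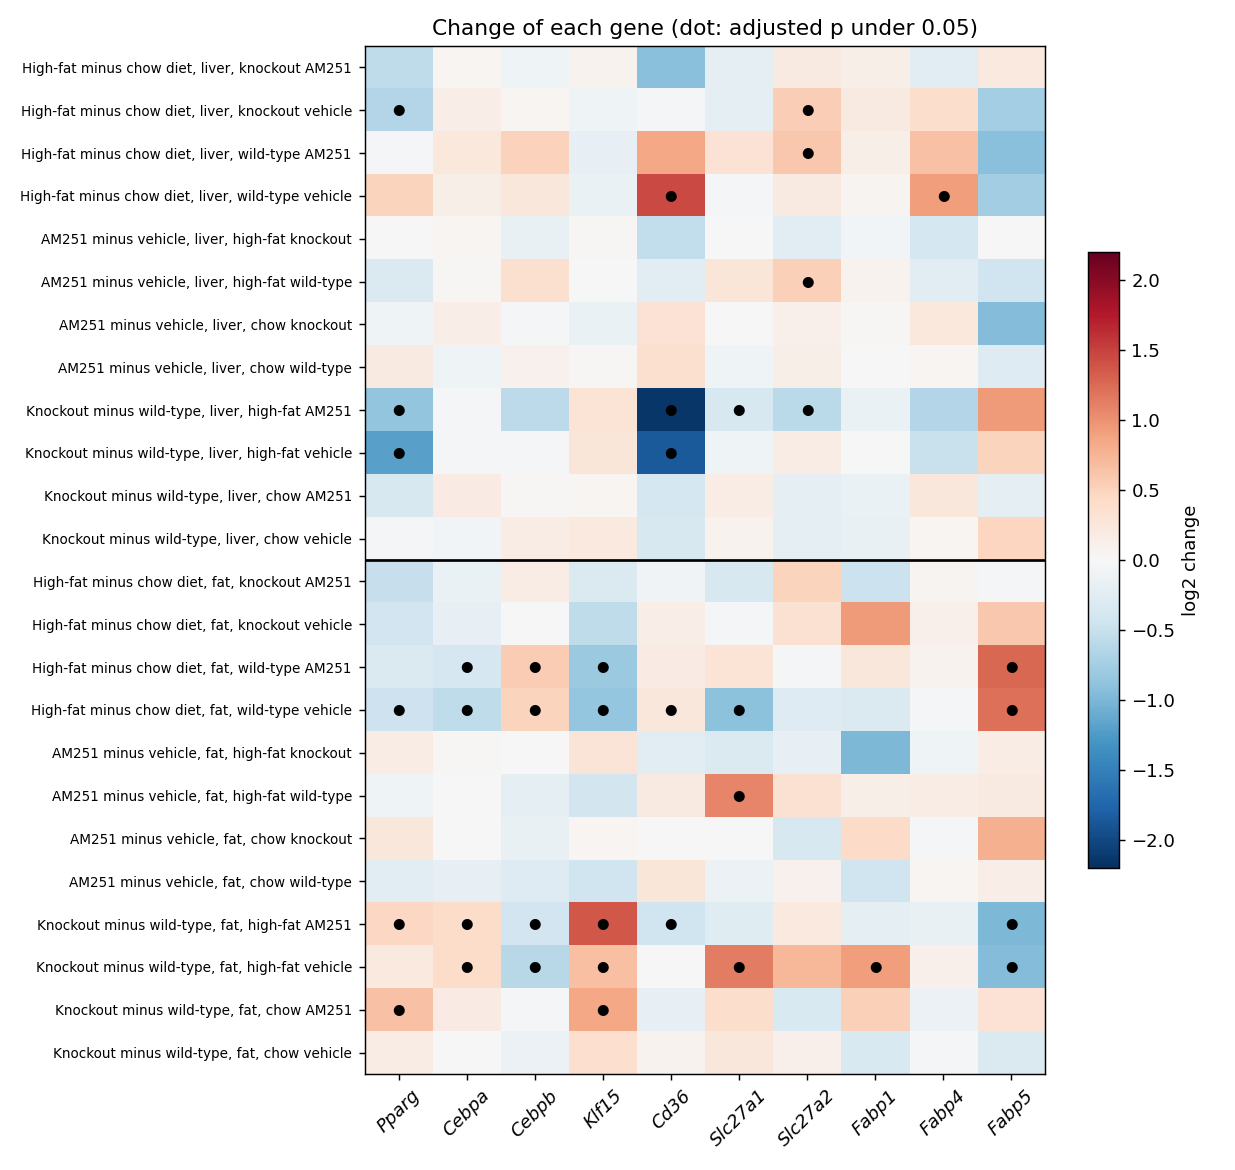
Log2 change of each of the 10 genes (columns) in 24 comparisons within liver (upper 12 rows) and epididymal fat (lower 12 rows), coloured from blue (lower) to red (higher); a dot marks an adjusted p under 0.05. In liver most dots lie on Pparg, Cd36 and Slc27a2, and in fat on Klf15, Cebpa, Cebpb and Fabp5.

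The genes whose log2 intensity followed each of the main members most closely over all arrays of a tissue were listed as a description, since the arrays share groups and no test was made. Over 39 liver arrays Pparg was nearest to Lgals1 (Pearson r = 0.86), which encodes galectin-1, then Mogat1 (0.79) and Acyp2 (0.78). Cd36 in liver was nearest to Tceal8 and Gpat3 (0.84 each) and Aldh3a2 (0.83), of which Gpat3 encodes an enzyme of triglyceride synthesis. Fabp4 in liver was nearest to Nid1 (0.83), Enc1 (0.79) and Col3a1 (0.76), and Nid1 and Col3a1 encode proteins of the extracellular matrix.

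Over 36 fat arrays Klf15 was nearest to Slc25a35 (0.95), Cs (0.94) and Dhrs11 (0.94), of which Cs encodes citrate synthase. Pparg in fat was nearest to Pdha1 (0.89), a subunit of pyruvate dehydrogenase, Mcts2 (0.89) and Csnk1a1 (0.88), and Cd36 to Lgals8 (0.86), Tbc1d15 (0.86) and Ppfibp1 (0.85). Among the 10 genes themselves, Pparg and Cd36 had r = 0.69 over the liver arrays and 0.28 after group means were taken out.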

How the data were processed

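RNA of liver and epididymal white fat was measured on 1-colour custom mouse arrays. The deposited values are probe set intensities on a linear scale made by the authors with RMA, per the submitters' processing notes. The sample descriptions set each array beside a virtual pool of vehicle arrays, while the values themselves, all positive and on an intensity scale, were read as those of single arrays, which no source states. The RMA version, and whether the tissues were normalized together, are not given in the sources used here. No column was left out.

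Of 38385 probe sets, 24478 had a single gene symbol in the probe table, 65 had several and 13842 were not listed. Symbols were updated through gene identifiers to RefSeq GRCm38.p6, and the probe set with the highest mean per gene and tissue was kept, which gave 19147 genes. The log2 values went into linear models in limma (version 3.58.1, under R 4.3.3), and every group had its own mean: 8 groups within a tissue, and all 16 for liver against fat. P-values were adjusted by Benjamini-Hochberg over all genes and called under 0.05, and the scripts were tested on simulated data. Within a tissue each array was taken as 1 mouse. Liver and fat arrays share numbers, and whether these mark the same mice is not stated. P-values set each difference against the spread between arrays within groups, pooled over all groups of the fit. The number of arrays limits the precision.

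The members, gene lists and tests were chosen with earlier results of these data known. All 10 members are named. Of each list, up to 4 genes past the threshold with the smallest p are named in the wild-type diet and AM251 comparisons, with the defining markers of other cell types and, for 3 members per tissue, the 3 nearest genes. The values of list genes in other comparisons, and Mogat1 in fat and knockout mice, were chosen after their values were seen. Numbers shared by liver and fat arrays (median r of deviations 0.043 over 30 pairs) and by high-fat and chow arrays were treated as names only.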

Additional observations from a re-analysis of the deposited data

Results flagged for a closer look

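In 14 of 140 gene and group combinations, 1 array stood apart from the rest of its group by Dixon's criterion, which chance alone meets in about 1 in 20. The gap to the nearest array, as a share of the group's range, was 0.923 for Cd36 in array 44 of high-fat knockout vehicle livers, 0.898 for Cebpb in array 35 of high-fat wild-type AM251 livers and 0.727 for Klf15 in array 47 of high-fat knockout AM251 livers. For Fabp4 it was 0.818 in array 2 of high-fat wild-type vehicle livers, without which its diet call was lost, and 0.756 in array 15 of chow knockout vehicle livers. For Pparg it was 0.715 in array 8 of chow wild-type AM251 livers. For Slc27a2 it was 0.785 in array 16 of chow knockout vehicle livers and 0.747 in array 34 of high-fat wild-type AM251 fat.

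Fabp5 had 6 of the 14. In liver the shares were 0.719 in array 3 of the high-fat wild-type vehicle group, 0.744 in array 1 of the chow wild-type vehicle group and 0.768 in array 23 of the chow knockout AM251 group. In fat they were 0.879 in array 45 of the high-fat knockout AM251 group, 0.723 in array 37 of the high-fat wild-type AM251 group and 0.740 in array 5 of the chow wild-type vehicle group.

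Effects that differed between groups by a limma test of the difference itself were the AM251 effect on Slc27a2 in high-fat liver, wild-type minus knockout (0.76), and the diet effect under vehicle, knockout minus wild-type, on Pparg in liver (-1.15) and on Fabp1 in fat (1.25). The diet effect in liver minus that in fat of wild-type vehicle mice was 1.20 for Cd36, 0.96 for Pparg, 0.95 for Fabp4, 0.87 for Slc27a1, 0.72 for Klf15, 0.69 for Cebpa and -1.98 for Fabp5.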

How the results depend on the processing

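Of 1309 recomputed values of member results past the threshold, 1224 kept direction and call, 85 kept the direction but missed the threshold and 0 reversed, over array weights, an offset of 16 before log2, quantile normalization, dim probe sets left out, other summaries of probe sets, a trended robust fit, the compared groups alone, the replicate block and fits without single arrays. Of 5270 recomputed values of member results short of the threshold, 44 passed it, all in the direction of the full fit. Another 277 changed sign but stayed short of the threshold. Counts of the 10 genes past the threshold moved as follows, and the cause was not tested. With the compared groups alone, 1 passed for diet in wild-type vehicle liver (2 in the full fit; 0 to 3 without single arrays), 1 for diet in knockout vehicle liver (full fit 2; 1 to 3), 1 for diet in knockout AM251 liver (full fit 0), 1 for diet in knockout AM251 fat (full fit 0) and 0 for AM251 in high-fat wild-type fat (full fit 1; 0 to 1). For diet in wild-type AM251 liver, 2 passed with array weights, the offset, dim probe sets left out or the mean of probe sets (full fit 1; 1 to 2 without single arrays). Quantile normalization gave 4 for diet in knockout vehicle liver, and 1 without its chow arrays 15 and 17. For the genotype difference of the diet effect in liver, 2 passed with quantile normalization, dim probe sets left out or the mean of probe sets (full fit 1; 1 to 2). Array weights gave 2 for diet in knockout AM251 liver, 2 for the genotype difference of the AM251 effect in fat (full fit 0; 0 to 1) and 1 for the tissue difference of the AM251 effect (full fit 0; 0 to 1), which was 1 also with quantile normalization. Dim probe sets left out gave 1 for that AM251 difference in fat and 0 for the diet difference in fat (full fit 1; 0 to 1). Without high-fat wild-type vehicle fat arrays 1 and 5, an alternative chosen after seeing the data, 4 passed for diet in wild-type vehicle fat (full fit 7; 5 to 7 without single arrays), 2 for genotype in high-fat vehicle fat (full fit 6; 3 to 6), 1 for the genotype difference of the AM251 effect, 0 for that of the diet effect and 1 for the tissue difference of the AM251 effect. For genotype in chow AM251 fat 0 to 2 passed without single arrays (full fit 2).

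Liver and fat arrays of the same number had low correlations of their deviations (6 of 30 over 0.1, range -0.13 to 0.20). Low correlations between different organs cannot tell whether shared numbers mark the same mice, so this was left undecided. The replicate block, with a consensus correlation of 0.039, changed no call between tissues. For diet, with the compared groups alone and the replicate block, Cd36 in wild-type vehicle fat was 0.19 (adjusted p = 0.352) and Pparg -0.43 (adjusted p = 0.175), and no other diet call of the 10 genes in wild-type vehicle mice was lost.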
